A study of Mus musculus with 12 samples.

Results

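Oligodendrocyte precursor cells are the proliferating glia that give rise to the myelin-forming cells of the central nervous system. They receive platelet-derived growth factor through the receptor PDGFRA, carry the NG2 proteoglycan (Cspg4) on their surface, and surround themselves with chondroitin sulfate proteoglycans and other matrix proteins. When a precursor commits to differentiation it leaves the cell cycle, and most of this program is switched off as myelin genes come on. The expression of 30 genes listed by name as oligodendrocyte precursor genes was followed here. All 30 were found among 35675 genes with summed counts, and all 30 passed the filter on low counts that left 13456 genes to test.

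The values came from RNA of spinal cord cells of mice at postnatal day 10. Rala and Ralb encode closely related GTPases, small switch proteins related to Ras. Control mice (CnpCre:Rosa26-StopFlox-TdTomato), RalA cKO mice (CnpCre:RalAflox/flox:Rosa26-StopFlox-TdTomato) and RalAB cKO mice, which had RalBflox/flox besides the alleles of RalA cKO, were compared, with 4 mice a group and 1 library a mouse. All 3 groups, controls included, carried the CnpCre recombinase and the red reporter tdTomato, so the contrasts are between floxed alleles within Cre carriers. Cnp is a gene of the oligodendrocyte lineage that is highest in myelinating cells. Cells with tdTomato and a large forward scatter, a measure of cell size, were sorted, so what follows describes the precursor genes in a sort enriched for oligodendrocytes and not in purified precursors. The number of precursors in each sort is not stated by the labels.

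The libraries held 10928206 to 15440437 estimated counts each. Genes of myelinating cells (12 genes, Mbp among them) made up 11.6%, 11.5% and 11.3% of all counts on average in the control, single and double mutant libraries. The 30 precursor genes made up 0.443% ± 0.079, 0.355% ± 0.037 and 0.416% ± 0.037 in the same order (SD, n = 4). Without Bcan, the most abundant of the 30, their share was 0.309% ± 0.065, 0.224% ± 0.033 and 0.233% ± 0.058. Rala ranged over 35.5 to 59.3 CPM (the count scaled to library size with the TMM method) in control, 33.1 to 42.7 in RalA cKO and 32.2 to 42.9 in RalAB cKO libraries, and neither Rala nor Ralb passed the test in any of the 3 comparisons (smallest edgeR adjusted p = 0.0832). These counts take in the whole gene, including exons that the floxed alleles may leave in place, so they do not check the genotype labels. Control 2 and RalA cKO 2 each held reads both of Xist (1468 and 2572) and of 4 single-copy Y-linked genes (167 and 97), although each library is labelled as 1 mouse. To a lesser degree RalAB cKO 3 also held both, with 130 reads of Xist beside 625 of the Y-linked genes, and control 1 had 27 beside 625. Reads of these Y-linked genes were also uneven between the groups, with 589 to 1234 in RalA cKO 1, 3 and 4, 625 in control 1 and 625 and 667 in RalAB cKO 3 and 4, but 3 to 11 in controls 3 and 4 and RalAB cKO 1 and 2. Their part in the differences below was not tested beyond the covariates given there. The counts of called genes below are therefore also given without control 2 and RalA cKO 2. RalAB cKO 3 was left out only on its own.

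In RalAB cKO 18 of the 30 precursor genes fell against control and 2 rose, where 9.02% of all tested genes fell and 9.39% rose. Pdgfra, the receptor that defines the precursor, fell the most, to 26.96 ± 18.1 CPM from 107 ± 29.8 (SD, n = 4). Bcan and Epn2, which are among the most abundant of the 30, were the genes that rose. The fall was not particular to the precursor list. In the same comparison 9 of 12 astrocyte, 11 of 18 cell cycle and 6 of 15 neuronal genes fell, and 1 neuronal gene rose. Of 12 microglial genes 11 rose. In RalA cKO none of the 30 passed the test, where 1.07% of all tested genes fell and 1.71% rose. Values below control were seen for 27 of the 30, against 52.5% of all genes. Between the mutants 3 of the 30, Cspg5, C1ql1 and Megf11, were lower in RalAB cKO, where 4.5% of all tested genes were lower and 7.03% higher. Of the 30, 0 were lower when RalA cKO 1 or RalAB cKO 2, 3 or 4 was left out. In bulk RNA a smaller number of precursors in the sort and less RNA of these genes per precursor cannot be told apart.

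Without control 2 and RalA cKO 2, a choice made after seeing the data, 17 genes fell and none rose in RalAB cKO against control, 0 passed in RalA cKO, and 3 fell between the mutants. With the summed reads of the 4 Y-linked genes as a covariate, also chosen after seeing the data, 19 fell and 1 rose, 0 passed in RalA cKO, and 5 fell and 1 rose between the mutants. With the summed reads of the whole Y chromosome as the covariate, which do not follow those 4 genes (112.9 CPM in control 3 with 11 reads of them, 65.8 CPM in control 1 with 625), 13 fell and 1 rose in RalAB cKO, 1 fell in RalA cKO, and between the mutants 0 fell and 1 rose. The number that fell in RalAB cKO against control was thus 17, 19 and 13 in the 3 cases, against 18 without any covariate or omission. Over all tested genes 840 (of 13673), 1191 and 913 (of 13456) fell in the same cases, against 1214 without any covariate or omission.

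**Figure D1:**
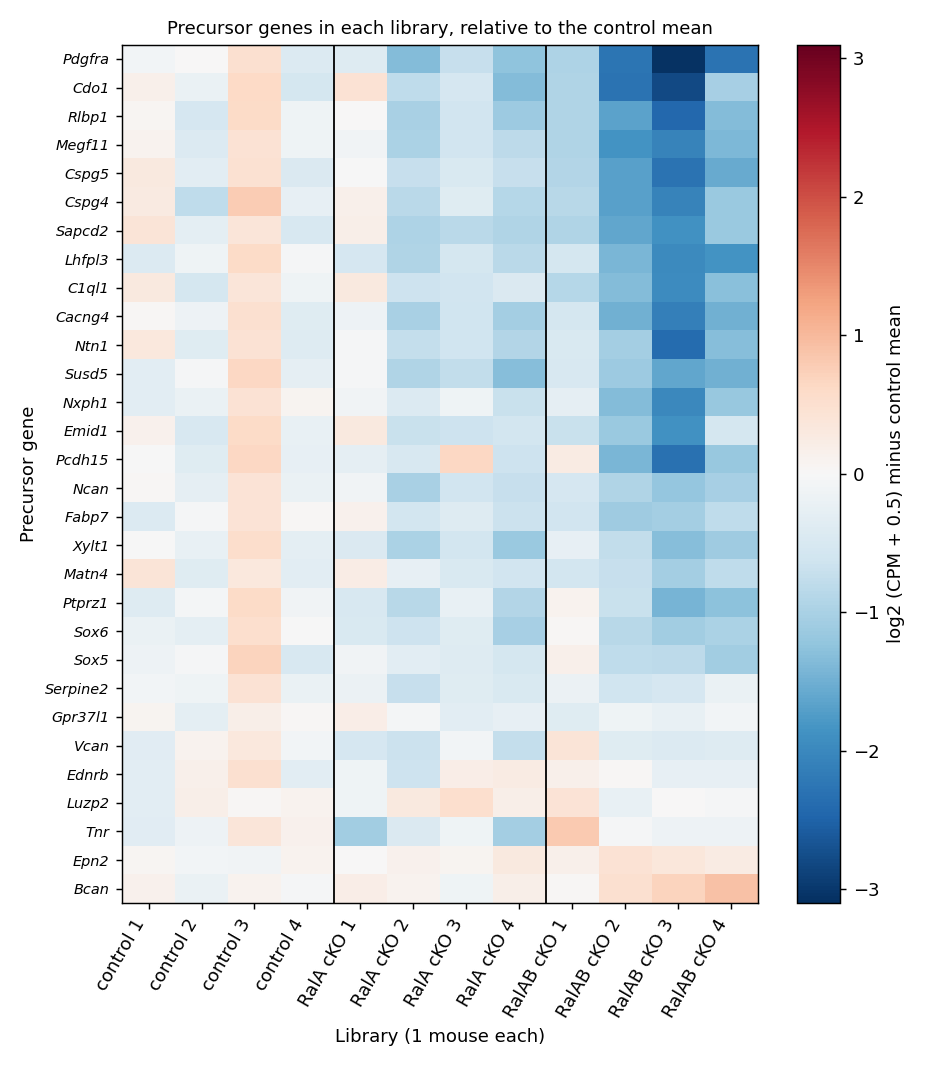
Level of each of the 30 precursor genes (vertical axis, ordered by the RalAB cKO difference from control) in each of the 12 libraries (horizontal axis), as log2 (CPM + 0.5) minus the control mean, with lower values in blue and higher values in red. The blue is deepest in RalAB cKO 3 for Pdgfra and Cdo1, and Bcan at the bottom runs the other way in RalAB cKO 2 to 4.

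Levels between genes were compared as TPM, which expresses transcript abundance after correction for transcript length. The control means ran from 805 ± 94.6 TPM for Bcan to 1.55 ± 0.422 TPM for Pcdh15, with a median of 26.1 TPM over the 30 genes. Bcan was followed by Gpr37l1 at 475 ± 73.04 TPM, Serpine2 at 194 ± 56.5 TPM, Epn2 at 165 ± 13.9 TPM, Fabp7 at 111 ± 34.04 TPM and Cspg5 at 101 ± 33.8 TPM. Bcan and Gpr37l1 did not overlap with any gene ranked below them in any control library, whereas the control ranges of Fabp7, Cspg5, C1ql1, Tnr and Matn4 overlapped. The receptor that names the cell type, Pdgfra, ranked 13th at 31.3 ± 8.71 TPM, and Cspg4 ranked 20th at 17.8 ± 8.73 TPM. The genes most used to mark the precursor were thus of middle rank in this list.

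Promoter sequence was looked at for the genes that moved together. RefSeq windows of GRCm38.p6 were found for 23 of the 30 genes, and the 250 bases upstream of the start are shown for 3 genes that fell and for the 2 that rose in RalAB cKO, each with a single window that lay clear of the annotated gene. Capitals mark GGGCGG, the core of the GC box, and CAGCTG, an E-box of basic helix-loop-helix factors such as OLIG2, on either strand, so that CCGCCC is the same GC box read from the other strand. The windows are chr5:75152001-75152250 (plus strand), chr2:25371785-25372034 (plus), chr5:22745804-22746053 (plus), chr3:88000357-88000606 (minus) and chr11:61579688-61579937 (minus).
Pdgfra: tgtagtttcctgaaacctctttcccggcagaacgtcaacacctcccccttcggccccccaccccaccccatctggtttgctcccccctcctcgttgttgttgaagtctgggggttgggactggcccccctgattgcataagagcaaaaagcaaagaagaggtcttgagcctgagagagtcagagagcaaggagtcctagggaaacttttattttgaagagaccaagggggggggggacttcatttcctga
Sapcd2: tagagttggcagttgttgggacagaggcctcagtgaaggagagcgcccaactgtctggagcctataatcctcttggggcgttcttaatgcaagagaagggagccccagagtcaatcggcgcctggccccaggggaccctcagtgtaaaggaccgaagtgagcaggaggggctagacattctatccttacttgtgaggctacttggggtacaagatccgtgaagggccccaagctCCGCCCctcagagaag
Lhfpl3: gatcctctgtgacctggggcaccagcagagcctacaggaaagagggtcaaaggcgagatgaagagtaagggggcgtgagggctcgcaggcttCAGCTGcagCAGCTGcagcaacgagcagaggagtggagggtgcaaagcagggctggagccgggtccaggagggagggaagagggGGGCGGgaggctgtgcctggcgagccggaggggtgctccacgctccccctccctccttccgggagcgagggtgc
Bcan: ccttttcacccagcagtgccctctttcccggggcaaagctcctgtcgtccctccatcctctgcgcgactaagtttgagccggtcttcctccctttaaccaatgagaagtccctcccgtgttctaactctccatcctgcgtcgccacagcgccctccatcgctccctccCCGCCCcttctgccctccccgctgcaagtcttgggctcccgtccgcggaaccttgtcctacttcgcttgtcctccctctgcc
Epn2: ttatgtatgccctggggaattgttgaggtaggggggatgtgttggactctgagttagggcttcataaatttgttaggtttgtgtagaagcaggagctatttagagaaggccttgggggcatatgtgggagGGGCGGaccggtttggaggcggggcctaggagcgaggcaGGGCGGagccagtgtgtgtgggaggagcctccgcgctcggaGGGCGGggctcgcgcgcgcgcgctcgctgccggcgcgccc

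The printed Pdgfra window held neither motif, Sapcd2 and Bcan held 1 GGGCGG each, and Epn2 held 3. Lhfpl3 held 2 copies of CAGCTG beside 1 GGGCGG. In these 5 windows the genes that fell and those that rose thus did not divide by these letters. No such comparison was made for the other genes that fell. Over 30 windows of the 23 genes, GGGCGG was present in 14 (46.7%, against 32.7% of all 32851 windows) and CAGCTG in 5 (16.7%, against 13.0% of all windows). The median GC content was 56.8% in the windows of these genes and 52.4% in all windows. ACAAAG and ACAATG, forms of the SOX core, were in 9 and 3 windows (16.5% and 10.7% of all), and 6 of the 30 windows belong to Sox6 alone. Both strands were searched, and no hits overlapped each other in the 5 printed windows.

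Among the 6 receptors and secreted ligands, 4 fell in RalAB cKO and 2 did not pass, with a median log2 difference of -1.22. Pdgfra (chr5:75152292-75198215, plus strand, GRCm38), the receptor for the growth factor that drives precursor division, stood at 98.1, 105, 149 and 77.7 CPM in the control libraries, 79.2, 40.7, 63.3 and 44.05 in RalA cKO and 53.3, 21.5, 11.99 and 21.1 in RalAB cKO. Every RalAB cKO library lay below every control library, and RalAB cKO 1 was the highest of its group by a wide margin. Pdgfra fell by 1.99 ± 0.42 on the log2 scale (edgeR adjusted p = 0.00775), a 3.98-fold lower level. Its difference in RalA cKO was -0.92 ± 0.40 (edgeR adjusted p = 0.204), with RalA cKO 1 reaching into the control range.

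C1ql1 (chr11:102939264-102946688, minus strand), a secreted C1q-like protein, was counted at 76.5, 42.3, 81.6 and 57.3 CPM in the control libraries, 77.2, 39.8, 41.02 and 45.4 in RalA cKO and 33.9, 24.3, 15.7 and 24.9 in RalAB cKO. RalA cKO 1 sat inside the control range and the other 3 RalA cKO libraries near the lowest control, while no RalAB cKO library reached either group. C1ql1 fell by 1.38 ± 0.28 on the log2 scale (edgeR adjusted p = 0.0041) against control. Nxph1, a secreted ligand of neurexins with a control level of 4.68 ± 1.51 TPM, had 5.89, 6.504, 10.6 and 8.002 CPM in the control libraries, 6.97, 5.48, 6.895 and 4.48 in RalA cKO and 6.16, 2.69, 1.52 and 3.04 in RalAB cKO. RalAB cKO 1 overlapped the controls and the other 3 did not. Nxph1 fell by 1.20 ± 0.33 on the log2 scale (edgeR adjusted p = 0.02), a call lost without control 3 or without RalAB cKO 2, 3 or 4 in turn (adjusted p 0.0554 to 0.0671).

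Ntn1 (control 13.6 ± 4.67 TPM), the guidance ligand netrin-1, ranged over 29.5 to 53.5 CPM in control and 7.03 to 27.8 in RalAB cKO and fell by 1.24 ± 0.35 on the log2 scale (edgeR adjusted p = 0.0283). That call was lost without control 1, control 3, RalAB cKO 2 or RalAB cKO 4 in turn, with a highest adjusted p of 0.0945 over all alternatives. The 2 receptors that did not pass are both G protein-coupled. Gpr37l1, which astrocytes also express, had 619.8, 471, 656 and 591 CPM in the control libraries, 671, 552, 463 and 483 in RalA cKO and 449, 532, 493 and 549 in RalAB cKO, and its groups overlapped throughout, with -0.21 ± 0.13 (edgeR adjusted p = 0.302). Ednrb (control 12.6 ± 4.36 TPM), an endothelin receptor, lay at -0.12 ± 0.21 (edgeR adjusted p = 0.756).

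The largest role group was the 11 genes of matrix proteins, proteoglycans and their synthesis, of which 6 fell, 1 rose and 4 did not pass in RalAB cKO (median log2 difference -0.82). Cspg4 (chr9:56865033-56899870, plus strand), which encodes NG2, stood at 74.4, 35.2, 106 and 51.1 CPM in the control libraries, 68.1, 34.05, 47.04 and 33.2 in RalA cKO and 33.6, 18.9, 14.1 and 27.5 in RalAB cKO. Its controls were the most scattered of all 30 genes, with control 2 as low as the lower RalA cKO libraries, but every RalAB cKO library was below every control. Cspg4 fell by 1.51 ± 0.38 on the log2 scale (edgeR adjusted p = 0.0178), and without RalAB cKO 2 the adjusted p was 0.0525.

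Cspg5 (chr9:110243783-110262576, plus strand), the transmembrane proteoglycan neuroglycan C, had 131, 85.1, 149 and 78.6 CPM in the control libraries, 107, 64.6, 76.7 and 64.8 in RalA cKO and 57.01, 32.8, 21.7 and 35.7 in RalAB cKO. The 3 groups stepped down, and no RalAB cKO library overlapped control or RalA cKO. Cspg5 fell by 1.59 ± 0.29 on the log2 scale (edgeR adjusted p = 0.00288) against control. Ncan (control 19.3 ± 5.32 TPM), the secreted proteoglycan neurocan that binds hyaluronan, was at 80.3, 64.3, 104 and 67.8 CPM in the control libraries, 72.6, 38.6, 51.1 and 47.04 in RalA cKO and 53.7, 40.7, 33.5 and 37.8 in RalAB cKO. RalAB cKO lay wholly below control, and RalA cKO overlapped both groups. Ncan fell by 0.93 ± 0.20 on the log2 scale (edgeR adjusted p = 0.00491).

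Matn4 (control 81.6 ± 23.6 TPM), a matrilin that links matrix fibres, was measured at 127, 73.1, 119 and 75.6 CPM in the control libraries, 113, 80.6, 68.7 and 63.3 in RalA cKO and 64.3, 58.2, 46.2 and 55.4 in RalAB cKO. All RalAB cKO libraries were under the lowest control, and RalA cKO 1 was between the lower and the upper controls. Matn4 fell by 0.82 ± 0.21 on the log2 scale (edgeR adjusted p = 0.0133). The remaining members of the group that fell were Xylt1 (control 5.95 ± 2.09 TPM), the enzyme that starts the sugar chain of proteoglycans, at -0.86, and Emid1 (control 16.6 ± 5.66 TPM), a secreted protein with an EMI domain, at -1.09 on the log2 scale. Both calls were lost without control 3, RalAB cKO 2 or RalAB cKO 3 in turn, Xylt1 also without RalAB cKO 4 and Emid1 without control 1, with highest adjusted p of 0.0816 and 0.0924.

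Bcan (chr3:87987531-88000230, minus strand), whose upstream window is printed above, encodes brevican, a hyaluronan-binding proteoglycan of the nervous system that astrocytes also make. It ran against the other proteoglycans, with 1388, 1089.9, 1370.2 and 1233 CPM in the control libraries, 1467, 1359, 1159.8 and 1431 in RalA cKO and 1291, 1785, 2037 and 2383 in RalAB cKO. RalAB cKO 2, 3 and 4 were above every control and every RalA cKO library, and RalAB cKO 1 was inside both ranges. Bcan rose by 0.56 ± 0.16 on the log2 scale (edgeR adjusted p = 0.0207), a 1.48-fold higher level. The call was lost without control 2 (adjusted p = 0.0666), without RalAB cKO 3 (0.0642) and without RalAB cKO 4 (0.0865), and without control 2 and RalA cKO 2 together (0.0955).

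The 4 matrix genes that did not pass were Tnr, Vcan, Ptprz1 and Serpine2. Tnr (control 84.1 ± 23.7 TPM), the matrix glycoprotein tenascin-R that oligodendrocytes also make as they myelinate, had 423, 489.9, 704 and 597 CPM in the control libraries, 259, 395, 494 and 263 in RalA cKO and 948, 528, 487 and 487 in RalAB cKO. RalAB cKO 1 was the highest of all 12 libraries and the other 3 were in the control range, with 0.15 ± 0.26 (edgeR adjusted p = 0.753). Vcan (control 47.03 ± 12.1 TPM), the large hyaluronan-binding proteoglycan versican, ranged over 95.7 to 154 CPM in control and 90.9 to 162 in RalAB cKO, with -0.18 ± 0.20 (edgeR adjusted p = 0.607). Ptprz1 (control 26.1 ± 9.78 TPM), a receptor tyrosine phosphatase that carries chondroitin sulfate, lay at -0.74 ± 0.33 (edgeR adjusted p = 0.144). Without RalAB cKO 1 the Ptprz1 difference was -1.15 and passed with an adjusted p of 0.00644. Serpine2, a secreted protease inhibitor, had 166, 159.7, 238 and 152 CPM in the control libraries, 156, 107, 135 and 126 in RalA cKO and 154, 115, 122 and 152 in RalAB cKO. Control 3 stood well above the rest, and the difference was -0.40 ± 0.15 (edgeR adjusted p = 0.0846), which passed without RalAB cKO 1 at -0.46 (adjusted p = 0.0444).

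**Figure D2:**
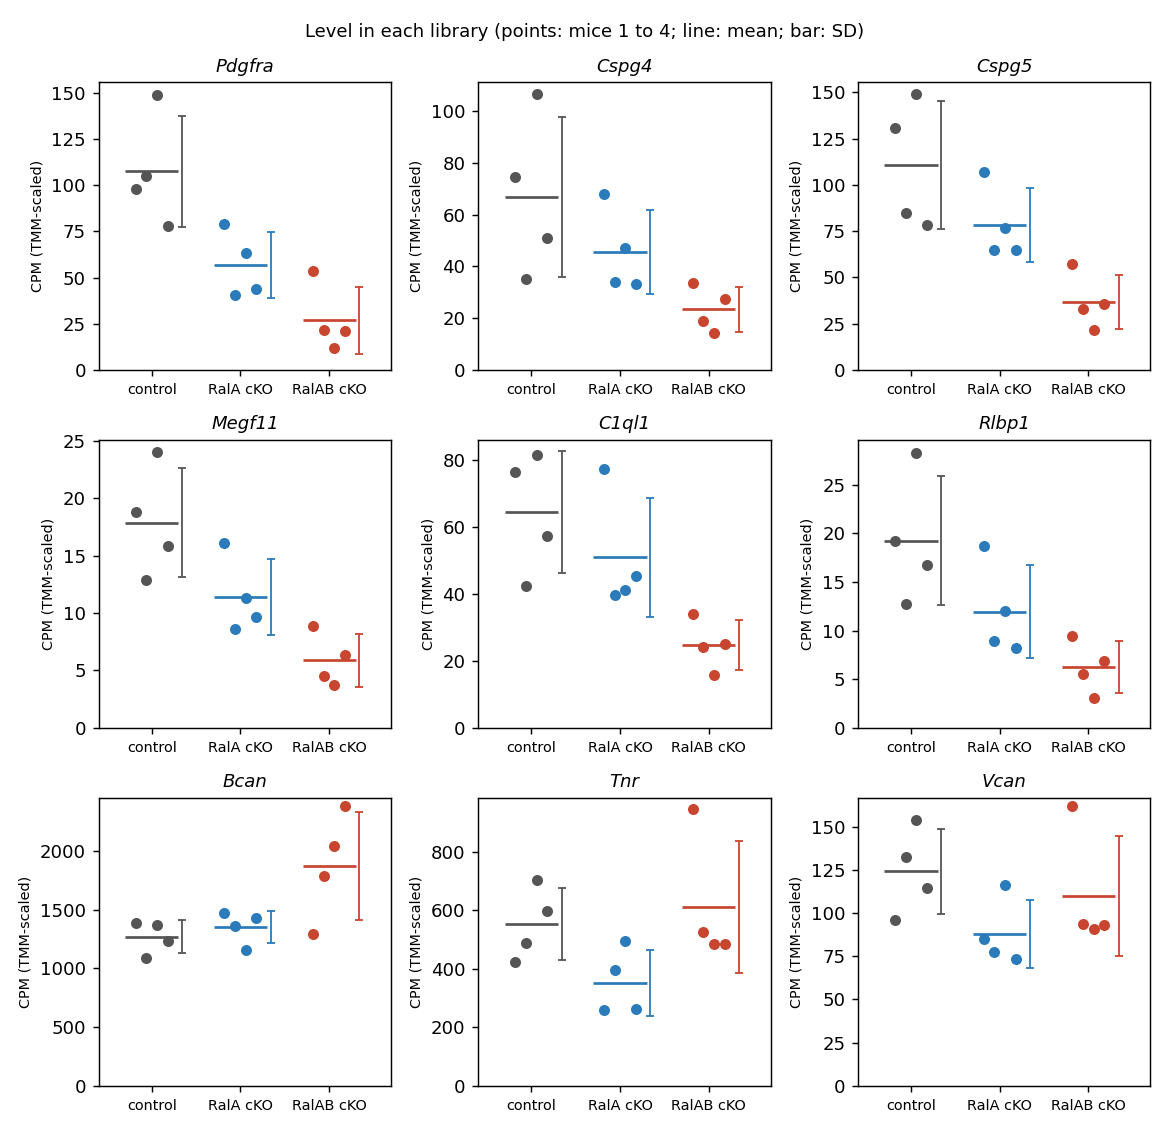
CPM (vertical axis, linear from 0) of 9 precursor genes in each library, with points for mice 1 to 4 from left to right in each group, a line for the mean and a bar for the SD. Pdgfra, Cspg4, Cspg5, Megf11, C1ql1 and Rlbp1 step down from control to RalAB cKO, whereas Bcan is higher in 3 of 4 RalAB cKO libraries and 1 RalAB cKO library stands alone at the top in Tnr and Vcan.

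Of the 6 genes grouped as other membrane proteins 4 fell and 2 did not pass in RalAB cKO, with a median log2 difference of -1.29. Luzp2 was placed in this group although it is not an established membrane protein. Megf11 (chr9:64385626-64709205, plus strand), a membrane protein with repeated EGF-like domains, gave 18.8, 12.8, 24.004 and 15.8 CPM in the control libraries, 16.1, 8.58, 11.3 and 9.68 in RalA cKO and 8.91, 4.49, 3.76 and 6.31 in RalAB cKO. Every RalAB cKO library was below every control, and it had the smallest p of all 30 genes. Megf11 fell by 1.60 ± 0.27 on the log2 scale (edgeR adjusted p = 0.000908), a 3.04-fold lower level. Lhfpl3 (control 26.1 ± 10.3 TPM), a 4-span membrane protein, was at 32.9, 40.4, 67.6 and 43.3 CPM in the control libraries, 30.7, 23.2, 30.2 and 24.7 in RalA cKO and 30.5, 16.3, 10.9 and 11.9 in RalAB cKO. All RalA cKO and all RalAB cKO libraries were below the lowest control. Lhfpl3 fell by 1.40 ± 0.30 on the log2 scale (edgeR adjusted p = 0.00649).

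Cacng4 (control 29.8 ± 9.03 TPM), an auxiliary subunit of AMPA receptors, which let precursors sense glutamate, had 54.2, 47.5, 75.8 and 40.9 CPM in the control libraries, 47.8, 26.2, 34.6 and 25.3 in RalA cKO and 36.2, 18.7, 11.9 and 18.6 in RalAB cKO. RalAB cKO lay below control without overlap and RalA cKO 1 within the control range. Cacng4 fell by 1.35 ± 0.32 on the log2 scale (edgeR adjusted p = 0.011). Susd5 (control 6.299 ± 2.64 TPM) stood at 11.4, 14.04, 22.6 and 11.6 CPM in the control libraries, 13.9, 7.25, 8.204 and 5.48 in RalA cKO and 10.02, 6.29, 4.396 and 4.79 in RalAB cKO. Here too no RalAB cKO library reached a control. Susd5 fell by 1.23 ± 0.32 on the log2 scale (edgeR adjusted p = 0.0152), but not without control 3 (-0.96, adjusted p = 0.0549), RalAB cKO 3 (-1.08, 0.0517) or RalAB cKO 4 (-1.11, 0.0553). Pcdh15 (control 1.55 ± 0.422 TPM), a protocadherin, was the lowest gene of the list and had -1.01 ± 0.52 (edgeR adjusted p = 0.198). Its RalAB cKO libraries ranged over 0.719 to 6.83 CPM, and without RalAB cKO 1 the difference was -1.88 with an adjusted p of 0.00473. Luzp2 (control 40.4 ± 6.797 TPM), a leucine zipper protein, lay at 0.05 ± 0.16 (edgeR adjusted p = 0.864).

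Of the 7 intracellular proteins 4 fell, 1 rose and 2 did not pass. Fabp7, a fatty acid-binding protein of neural progenitors and astrocytes as well as precursors, had 32.9, 43.6, 60.01 and 46.1 CPM in the control libraries, 48.8, 29.9, 33.5 and 27.8 in RalA cKO and 29.6, 20.4, 21.2 and 25.6 in RalAB cKO. RalAB cKO was below control in every library. Fabp7 fell by 0.92 ± 0.20 on the log2 scale (edgeR adjusted p = 0.00504). Rlbp1 (control 19.03 ± 7.19 TPM), a retinoid-binding protein, was at 19.3, 12.8, 28.3 and 16.7 CPM in the control libraries, 18.7, 8.93, 12.04 and 8.18 in RalA cKO and 9.502, 5.55, 3.04 and 6.92 in RalAB cKO. RalAB cKO 3 was the lowest, and RalA cKO 1 was again at the level of the controls. Rlbp1 fell by 1.62 ± 0.34 on the log2 scale (edgeR adjusted p = 0.00484).

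Sapcd2 (control 56.3 ± 18.3 TPM), which orients the spindle of dividing cells, was counted at 49.1, 29.98, 47.8 and 26.1 CPM in the control libraries, 42.1, 18.7, 20.5 and 19.1 in RalA cKO and 19.2, 11.7, 9.59 and 16.4 in RalAB cKO. All RalAB cKO libraries and RalA cKO 2, 3 and 4 were below every control. Sapcd2 fell by 1.43 ± 0.31 on the log2 scale (edgeR adjusted p = 0.00674). Cdo1 (control 22.04 ± 10.8 TPM), cysteine dioxygenase, ranged over 7.18 to 16.6 CPM in control and 1.12 to 5.35 in RalAB cKO, without overlap. Cdo1 fell by 1.76 ± 0.50 on the log2 scale (edgeR adjusted p = 0.0264), a call lost without control 3, RalAB cKO 2 or RalAB cKO 3 in turn and without control 2 and RalA cKO 2 together (adjusted p 0.0528 to 0.0756).

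Epn2, the endocytic adaptor epsin 2, moved in the opposite direction, with 323, 291, 288 and 334 CPM in the control libraries, 312, 336, 327 and 378 in RalA cKO and 345, 422, 392 and 369.8 in RalAB cKO. It had the least spread of the list in every group, and each RalAB cKO library was above each control. Epn2 rose by 0.31 ± 0.10 on the log2 scale (edgeR adjusted p = 0.0433), a 1.24-fold higher level, and the call was lost in 11 of 21 alternatives, among them without control 2, control 3, RalAB cKO 2, RalAB cKO 3 or RalAB cKO 4 in turn (adjusted p up to 0.151). The transcription factors Sox5 (control 3.39 ± 2.09 TPM) and Sox6 (control 14.01 ± 6.24 TPM), which hold precursors in the undifferentiated state, lay at -0.69 and -0.69 with edgeR adjusted p of 0.148 and 0.0735. Without RalAB cKO 1 both passed, at -1.08 (0.0138) for Sox5 and -1.02 (0.00124) for Sox6.

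Over the whole list the RalAB cKO differences from control ran from -1.99 to 0.56 with a median of -0.97, a 1.96-fold lower level, where the median of all tested genes was -0.01. In all, 26 of 30 lay below 0, against 51.1% of all genes. RalAB cKO libraries lay entirely below control for 16 genes and entirely above for 1, where 9.34% and 9.88% of all tested genes did so. The number that fell ranged from 12 without control 3 or without RalAB cKO 2 to 23 without RalAB cKO 1, with 13 without RalAB cKO 3. Over all tested genes 915 (of 13606) fell without control 3 and 808 (of 13666) without RalAB cKO 2. Without RalAB cKO 1 it was 1590 (of 13618) and without RalAB cKO 3 782 (of 13662), against 1214 (of 13456) with all 12 libraries. The calls of Ncan, Matn4, Fabp7, Cacng4, Sapcd2, Pdgfra, Cspg5, Megf11, Rlbp1, C1ql1 and Lhfpl3 held under all 21 alternatives.

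**Figure D3:**
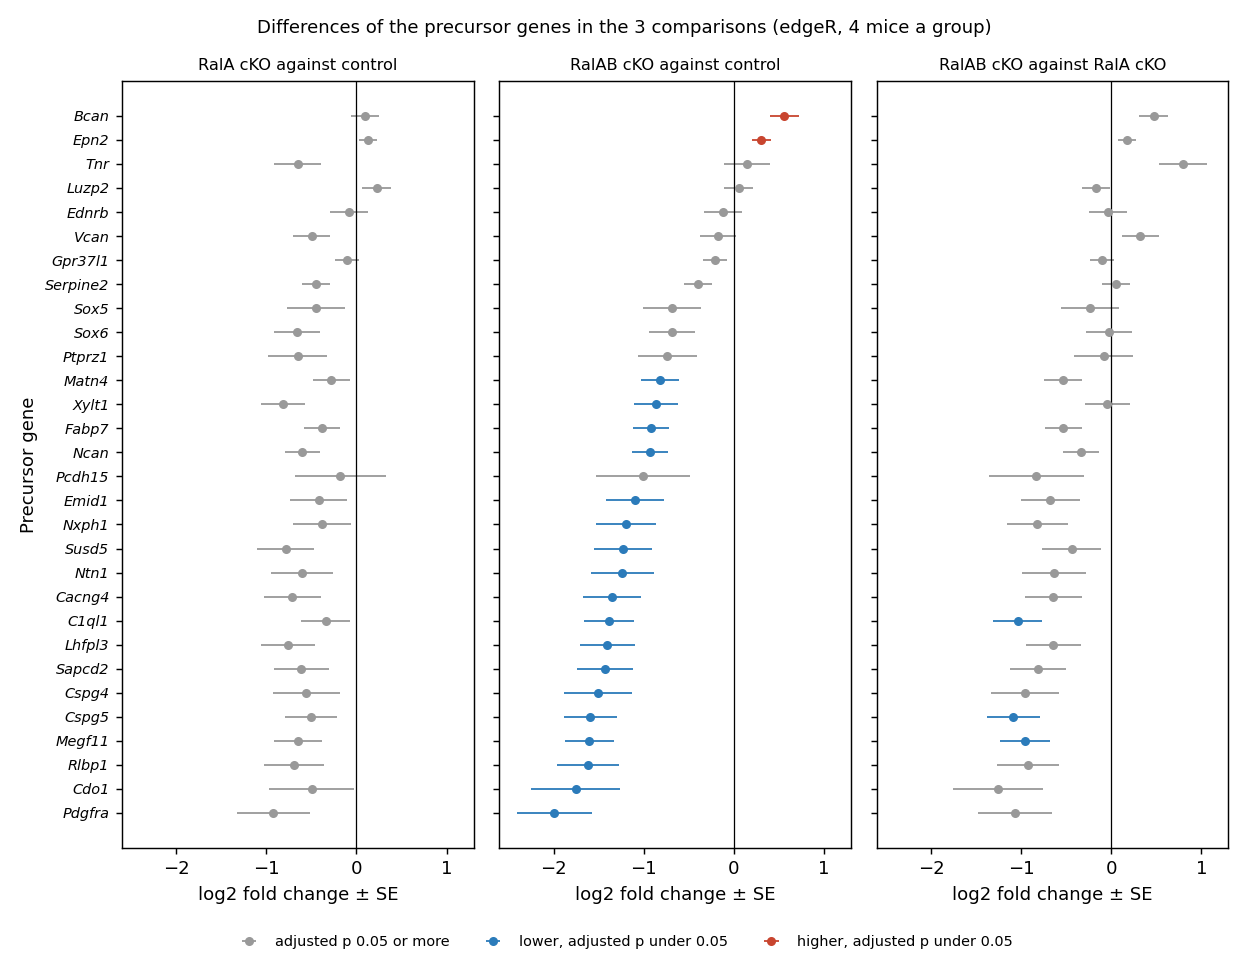
Log2 fold change ± SE (horizontal axis) of each of the 30 genes (vertical axis) in the 3 comparisons, from edgeR with 4 mice a group, in blue or red where the adjusted p was under 0.05. Most points lie left of 0 in all 3 panels, 18 blue and 2 red points stand in the middle panel, and 3 blue points in the right panel.

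In RalA cKO, 0 of the 30 genes passed in edgeR, where 2.78% of all tested genes passed, 1.71% higher and 1.07% lower. The differences ran from -0.92 (Pdgfra) to 0.22 (Luzp2) with a median of -0.50, against -0.02 over all genes. The medians of several marker lists of other cells were lower still and are given below. Lower values were seen in 27 of 30 genes, against 52.5% of all genes, and Bcan, Epn2 and Luzp2 were the exceptions. At an unadjusted p under 0.05 there were 11 lower and 0 higher genes, where 11.3% of all tested genes were lower at that level. DESeq2 called 1 gene lower (Xylt1, adjusted p = 0.0247), limma-voom 0, and limma-voom with quality weights 8, where these tools called 3.31%, 0.996% and 5.68% of all genes lower. Xylt1 had the smallest edgeR adjusted p, with -0.82 ± 0.24 (edgeR adjusted p = 0.0783) and 13.7 to 22.3 CPM in RalA cKO against 24.8 to 45.01 in control. Xylt1, Sox6 and Lhfpl3 were below control in every RalA cKO library, 3 genes, where 5.77% of all tested genes were so, and 0 were entirely above, where 5.64% of all genes were.

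The RalA cKO differences leaned on single libraries. Without RalA cKO 1, Ncan (-0.80, adjusted p = 0.0294) and Sapcd2 (-0.98, 0.0486) passed and the median was -0.69. Without control 3 the median was -0.31 and 0 genes passed. Scaled by library totals alone the median of the 30 genes was -0.62 and that of all tested genes -0.14.

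Both mutants were compared with the same 4 controls, so their differences from control are not independent and are set side by side here only as values. Pdgfra had -0.92 in RalA cKO and -1.99 in RalAB cKO, Cspg4 -0.56 and -1.51, and C1ql1 -0.34 and -1.38 on the log2 scale. For Xylt1 the values were -0.82 and -0.86, and for Sox6 -0.66 and -0.69. Tnr had -0.65 and 0.15, and Vcan -0.50 and -0.18.

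The mutants were also compared with each other, RalAB cKO, with floxed RalB besides floxed RalA, against RalA cKO. Here 3 of 30 genes fell and 0 rose, where 4.5% of all tested genes fell and 7.03% rose. Reads of the Y-linked genes were uneven between these 2 groups as well. Their part in the differences was not tested beyond the covariates given above. Cspg5 fell by 1.09 ± 0.29 on the log2 scale (edgeR adjusted p = 0.0291), C1ql1 fell by 1.04 ± 0.28 on the log2 scale (edgeR adjusted p = 0.0257) and Megf11 fell by 0.95 ± 0.28 on the log2 scale (edgeR adjusted p = 0.033). In the library values given above, Cspg5 and C1ql1 had no overlap between the mutants (7.63% of all tested genes lay entirely lower, and 9.65% entirely higher against 0 of the 30) and Megf11 overlapped by 1 library of each. None of the 3 calls held under every alternative. Leaving out RalA cKO 1, RalAB cKO 2, RalAB cKO 3 or RalAB cKO 4 in turn left 0 genes lower, leaving out RalA cKO 3 left 1, and leaving out RalAB cKO 1 gave 9 lower and 1 higher. Over all tested genes 504, 447, 448 and 390 were lower in the first 4 of these fits and 571 without RalA cKO 3. Without RalAB cKO 1 there were 712 lower and 966 higher, against 605 and 946 with all 12 libraries.

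The median difference between the mutants was -0.53, with 25 of 30 genes below 0 against 53.8% of all genes. Bcan (0.47, adjusted p = 0.0671) and Tnr (0.80, 0.0711) were on the other side. Bcan passed without RalAB cKO 1 (0.60, 0.00445) and Tnr without RalA cKO 3 (1.00, 0.0241). By role, the median was -0.73 for receptors and ligands, -0.09 for matrix genes, -0.64 for the group of other membrane proteins (with Luzp2) and -0.53 for intracellular proteins. The matrix genes thus spread to both sides of 0, with Cspg5 and Tnr at the ends.

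The precursor genes varied more between mice of the same genotype than most genes did. The median coefficient of variation over the 30 genes was 28.4% for control mice, 27.2% for single and 37.9% for double mutants, against 17.5%, 15.2% and 15.5% over all tested genes. Among genes between the lowest and the highest group mean of the 30 the medians were 14.5%, 12.1% and 13.5%. That range is wide (5.84 to 1270 CPM in control, 9495 of 13456 tested genes), so levels were not matched gene by gene. In control the coefficient of variation of the 30 genes ran from 7.49% for Epn2 to 46.3% for Cspg4, and 26 of the 30 were above the median of all genes.

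This spread was shared between genes. Control 3 was the highest control for 25 of the 30 genes, where it was so for 29.6% of all tested genes, and without it the median coefficient of variation in control was 16.7%. RalA cKO 1 was the highest of its group for 22 genes and RalAB cKO 1 for 26, where they were so for 25.5% and 35.1% of all genes. RalAB cKO 3 was the lowest of its group for 21 genes, where it was so for 22.8% of all tested genes. The median log2 level over the 30 genes, relative to the control mean, was 0.01, -0.21, 0.47 and -0.20 in controls 1 to 4, -0.10, -0.69, -0.44 and -0.73 in RalA cKO, and -0.49, -1.08, -1.52 and -1.09 in RalAB cKO. Every RalAB cKO library was thus below every control, while RalA cKO 1 lay inside the control range and above all RalAB cKO libraries.

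Some markers of other cells were high or low in the same libraries as the precursor genes. Control 3, with the highest precursor level, also had the highest astrocyte (0.66), neuron (1.13), endothelial (0.69) and cell cycle (0.36) median of the controls on the same scale. The same held for microglial (0.53), pericyte (0.45), fibroblast (0.34), Schwann cell (0.32) and committed oligodendrocyte (0.22) genes. For myelinating genes control 3 was the lowest control (-0.22), and for ependymal genes it was at -0.06. RalAB cKO 1 was the least low of its group for astrocyte (-0.51), neuron (-0.56) and cell cycle (-0.43) genes, and RalAB cKO 3 the lowest (-1.39, -1.44 and -1.48). Endothelial genes were least low in RalAB cKO 2 (-0.05, against -0.27 in RalAB cKO 1), and microglial genes had the reverse order, lowest in RalAB cKO 1 (1.60) and highest in RalAB cKO 3 (2.29). Between groups 9 of 12 astrocyte genes fell in RalAB cKO (Gja1 -1.25, Aldoc -0.66, Slc1a3 -1.16 and Fgfr3 -1.06) with a median of -1.05 over the list, and 6 did without control 3 or without RalAB cKO 3. Their summed share of counts ran from 0.0454% to 0.0858% for control mice, 0.0382% to 0.0603% for RalA cKO and 0.0303% to 0.0406% for RalAB cKO libraries.

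Among 15 tested neuronal genes 6 fell and 1 rose in RalAB cKO (Tubb3 -1.65, Nefh -1.86, Nefm -1.86 and Elavl4 -1.66), with a median of -1.41. Their summed share ran from 0.0791% to 0.107% for control mice, 0.0741% to 0.0806% for RalA cKO and 0.0901% to 0.104% for RalAB cKO, and Elavl3 was the gene that rose (0.33), from 684 ± 90.7 to 861 ± 52.9 CPM. That call was lost without control 1, 2 or 3 or RalAB cKO 2, 3 or 4 in turn. Of 18 cell cycle genes 11 fell (Aurkb -1.37, Rrm2 -1.40, Ccnb1 -1.15 and Birc5 -1.04), with shares of 0.0340% to 0.0549%, 0.0243% to 0.0374% and 0.0198% to 0.0336%. Microglial genes went the other way, with 11 of 12 higher (Trem2 2.81, C1qb 2.39 and C1qa 2.59) and shares of 0.0255% to 0.0628%, 0.0169% to 0.0294% and 0.126% to 0.202%. In RalA cKO none of the genes in these 4 lists passed, but without control 1 there were 6 microglial genes lower, and without RalA cKO 1 there were 3 cell cycle genes and 1 neuronal gene lower. Median differences in RalA cKO were -0.95 for neuronal, -0.70 for cell cycle, -0.66 for microglial and -0.22 for astrocyte genes. That of the 30 precursor genes was -0.50, so a lower median in RalA cKO was not particular to them. The part of these cells in the precursor differences was not tested.

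Cells other than precursors that express Pdgfra or Cspg4, fibroblasts and pericytes, left few reads. Fibroblast markers summed to 0.000527% to 0.00259% of counts, and Dcn, Lum and Slc6a13 were at 0 in at least 1 library and too low to test. Pericyte markers summed to 0.000993% to 0.00321%, and Anpep was the marker of that list that rose in RalAB cKO (0.135 ± 0.1198 CPM in control and 1.97 ± 0.474 in RalAB cKO). No endothelial, fibroblast, Schwann cell or ependymal marker passed in any comparison. The median differences in RalA cKO were -0.98 for endothelial, -0.75 for pericyte and -0.69 for fibroblast markers. They were -0.09 for Schwann cell and -0.13 for ependymal markers. Endothelial shares were 0.00207% to 0.00816%, Schwann cell shares 0.00733% to 0.00965% and ependymal shares 0.000465% to 0.00112% over the 12 libraries.

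**Figure D4:**
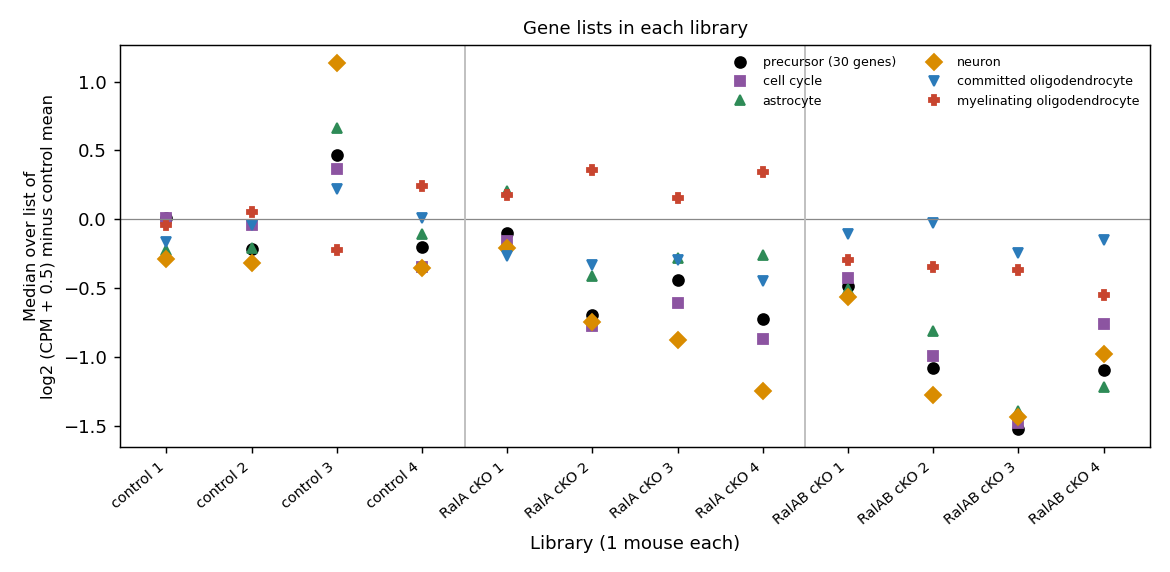
Median over each gene list of log2 (CPM + 0.5) minus the control mean (vertical axis) in each of the 12 libraries (horizontal axis), for the 30 precursor genes and 5 marker lists. Precursor, cell cycle, astrocyte and neuron medians are highest in control 3 and lowest in RalAB cKO 3, and committed and myelinating oligodendrocyte medians stay between -0.55 and 0.36.

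Of 11 tested genes of committed and newly formed oligodendrocytes 4 fell and 2 rose in RalAB cKO (Bmp4 -1.08, Nkx2-2 -0.59, Tcf7l2 0.64 and Rras2 0.52), with a median of -0.18. Without RalAB cKO 3 or without RalAB cKO 4, 1 gene fell (Bmp4) and 1 rose, and the calls of Nkx2-2 and Rras2 were lost without control 1 or control 3 as well. Gpr17 and Neu4 of this list are also in the second precursor list described next, and Neu4 counts among the fallen genes of both. The Neu4 call was lost in 7 of the 8 fits with 1 library left out. In RalA cKO 4 of them fell, which were Cyfip2 (-0.48), Casr (-0.54), Bmp4 (-0.67) and Itpr2 (-0.44), where 0 of the 30 precursor genes passed. Each of these 4 calls was lost without control 2 and without RalA cKO 4, among other single libraries. Of 12 genes of myelinating cells 6 fell in RalAB cKO (Mal -1.53, Ermn -1.05, Mog -0.60 and Mobp -0.56), with a median of -0.45, and Opalin (0.72) and Aspa (0.84) rose in RalA cKO, Aspa not without control 3 or RalA cKO 4. Whether these lists differ from the precursor genes was not tested.

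A second list held 29 further genes of precursors. In RalAB cKO 10 fell (Neu4 among them) and 0 rose, with a median of -0.70 and 25 of 29 below 0. Without RalAB cKO 1, 17 fell. The Neu4 call was lost when any other 1 of the 8 libraries compared was left out (edgeR adjusted p 0.0508 to 0.156). Lrrn1, a leucine-rich repeat membrane protein, fell by 1.03 ± 0.14 on the log2 scale (edgeR adjusted p = 0.000174), and Notch1, a receptor that keeps precursors from differentiating, fell by 0.79 ± 0.14 on the log2 scale (edgeR adjusted p = 0.00109). Rprm (-1.66) and Grik1 (-1.77), a kainate receptor subunit, fell as well. In RalA cKO 1 of the 29 fell, the cell adhesion molecule Dscam, at -0.56 ± 0.14 (edgeR adjusted p = 0.0393), a call lost without control 2, 3 or 4 or without RalA cKO 1, 2 or 4 in turn (adjusted p 0.0577 to 0.132). Between the mutants 4 fell, among them Lrrn1 (-0.69), Rprm (-1.27) and Tmem100 (-1.07), and Sox4 rose (0.59). Without RalA cKO 1, 3 or 4 or RalAB cKO 2, 3 or 4 in turn 2 genes fell, and Tmem100 was lost each time.

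Genes of the PDGF pathway around Pdgfra had a median near 0. Of 15 tested 3 rose and 1 fell in RalAB cKO, with a median of 0.07 on the log2 scale. The ligand Pdgfb rose by 2.26 ± 0.30 on the log2 scale (edgeR adjusted p = 0.000107), and the ligand Pdgfa, which activates PDGFRA, rose by 0.50 ± 0.11 on the log2 scale (edgeR adjusted p = 0.0064). Ptpn11, the phosphatase SHP2 that relays the receptor's signal, was 0.59 higher, and the kinase Src was at -0.75 and fell. Pdgfb stood at 2.43 ± 0.6597 CPM in control and 11.8 ± 2.83 in RalAB cKO (SD, n = 4). In RalA cKO none of the 15 passed. Between the mutants Pdgfb (2.60), Ptpn11 (0.60), Fyn (0.42) and Pdgfa (0.41) were higher in RalAB cKO and none was lower. The Fyn call was lost without RalA cKO 2, 3 or 4 or RalAB cKO 4, and that of Pdgfa without RalA cKO 1, 2 or 3 or RalAB cKO 2, 3 or 4 in turn.

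Of 22 tested genes for the assembly, breakdown and receptors of chondroitin sulfate proteoglycans 6 fell and 2 rose in RalAB cKO (median -0.35), and 4 fell without control 3 or without RalAB cKO 4. Ptn, the growth factor pleiotrophin that binds PTPRZ1, fell by 0.85 ± 0.13 on the log2 scale (edgeR adjusted p = 0.000346). Ptprf (-0.79), a receptor phosphatase, and Ugdh (-1.08), which makes the sugar donor for the chains, fell, and the protease Adamts1 rose by 2.24 ± 0.40 on the log2 scale (edgeR adjusted p = 0.00183). In RalA cKO none passed. Between the mutants 3 fell, Hapln2 (-0.87), a link protein of hyaluronan, Ptn (-0.76) and Ptprf (-0.66), and Adamts1 (1.79) and Ptprs rose, Ptprs with an adjusted p of 0.0499, a call lost when any 1 of the 8 libraries was left out.

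Among 21 tested binding partners of the precursor ligands and receptors, some of which (Dcc, Gria3 and Gria4 among them) are also in the second precursor list, 5 fell and 1 rose in RalAB cKO (median -0.22). Gria1, an AMPA receptor subunit, fell by 2.34 ± 0.45 on the log2 scale (edgeR adjusted p = 0.00196), from 4.998 ± 3.16 to 0.979 ± 0.465 CPM (SD, n = 4). Nrxn2 (-0.75), a neurexin, and Adgrb3 (-0.90), a receptor for C1q-like proteins, fell, while Psap (0.40), the source of the saposins, rose. Without control 3 or RalAB cKO 2, 3 or 4 in turn only 2 of the partners fell, Gria1 and Nrxn2, and 0 rose, while 8 fell without RalAB cKO 1. Psap did not pass without control 2 or control 4 either. None of the 21 passed in RalA cKO, and between the mutants 2 fell (Nrxn2 -0.71 and Gpr37 -0.42) and Ece1, which processes endothelins, rose (0.41). The Gpr37 and Ece1 calls were lost without RalA cKO 2, 3 or 4 or RalAB cKO 3 or 4 in turn, and that of Gpr37 also without RalAB cKO 1.

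Reads were assigned to transcripts before they were summed. Of the 30 genes, 16 had at least 2 transcripts above 10% of the gene's counts and 14 had 1. Vcan was split between Vcan-202 of 5702 bases, with 54.01%, 47.01% and 50.1% of the gene's counts in control, RalA cKO and RalAB cKO, and Vcan-203 of 12427 bases, with 42.8%, 50.8% and 45.7%. For Cspg4 a transcript annotated as a retained intron, Cspg4-204, took 13.3% ± 4.17, 22.3% ± 7.51 and 21.01% ± 9.67 (SD, n = 4), within overlapping ranges in all groups (7.23% to 30.7% over the 12 libraries). These shares are estimates by the authors' quantification and were not tested.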

How the data were processed

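RNA of 12 libraries (TruSeq Stranded mRNA) was analysed from the authors' deposited transcript tables, which give estimated counts and TPM. Per the submitters' processing notes, Trimmomatic 0.36, kallisto 0.44 and GRCm38.p6 were used. The deposited estimated counts were summed per gene (121104 of 121843 transcripts matched to GENCODE; the other 739 held 0.219 to 0.277% of counts) and rounded. TPM was summed the same way and used to compare levels between genes, since the authors' TPM corrects for length.

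Genes were filtered with filterByExpr (minimum count 10, minimum total 15) and tested with edgeR 4.0.16 (R 4.3.3; TMM, quasi-likelihood, robust) in 1 model of all 12 libraries, with Benjamini-Hochberg adjustment over 13456 genes and a threshold of 0.05. Libraries totalled 10928206 to 15440437 estimated counts. Replicates of a group differed by more than sampling noise in each pair, so none was merged. In simulated data edgeR recovered 84% of 2-fold changes for RalA cKO and 91% for RalAB cKO, each with control as reference, and 78% between the mutants. False calls made up 9.42%, 3.05% and 3.48% of calls. These rates were not estimated for the precursor genes alone, which varied more between mice than most tested genes. Recovery may therefore be lower for them.

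Alternatives were DESeq2 1.42.0, limma-voom 3.58.1 with and without quality weights, other scalings and filters, transcript length offsets, a replicate block, Y-linked covariates and leaving out libraries. The mouse numbers were treated as names only. Members and lists were chosen with earlier results of these data known. Full values were given for the 15 called genes with the smallest p in RalAB cKO against control and the 6 with the highest control TPM, and list genes by the smallest p. Values of Tnr, and companion genes outside that rule, were added after they were seen.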

Additional observations from a re-analysis of the deposited data

Results flagged for a closer look

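Within 8 of the 90 combinations of gene and group, 1 library stood apart from the other 3, with a gap to the nearest that passed Dixon's critical value for 4 samples. Chance alone picks out about 1 in 20 groups. In control, Serpine2 was at 238.4 CPM in control 3 and at 151.6 to 165.8 in the others. RalA cKO 1 stood high in 3 genes of its group, with C1ql1 at 77.2 CPM (others 39.8 to 45.4), Emid1 at 17.9 (8.84 to 9.61) and Sapcd2 at 42.1 (18.7 to 20.5).

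RalAB cKO 1 stood high in 4 genes. Tnr was at 947.9 CPM there (486.6 to 527.5 in the other 3), Vcan at 161.8 (90.9 to 93.7), Sox6 at 47.6 (21.6 to 25.1) and Sox5 at 6.61 (2.51 to 3.18).

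The mutants differed from each other, by the test of that difference itself, in Cspg5 (-1.09 on the log2 scale, RalAB cKO minus RalA cKO), C1ql1 (-1.04) and Megf11 (-0.95).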

How the results depend on the processing

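Of the 20 calls in RalAB cKO against control, 11 held in all 21 alternatives, and of the 3 between the mutants, 0 did. In RalA cKO against control the genes called lower (0) became 1 with DESeq2, 8 with limma-voom quality weights and 1 with the summed Y-linked covariate, and ranged over 0 to 2 when 1 library was left out. In RalAB cKO against control the genes called higher (2) became 1 without a filter, with the 8 libraries only, with the replicate block and with either Y-linked covariate, and 0 without control 2 and RalA cKO 2 together (leave-one-out 0 to 2). Genes called lower there (18) ranged over 12 to 23. Over all tested genes those called lower there (1214) ranged over 766 to 1590 when 1 library was left out. Between the mutants the genes called higher (0) became 1 with library totals, without a filter, with DESeq2 and with either Y-linked covariate, and 2 with quality weights (leave-one-out 0 to 1). Genes called lower (3) became 1 without a filter, 6 with DESeq2, 9 with quality weights, 0 with the summed Y-linked covariate, which does not follow the 4 single-copy Y-linked genes, and 5 with that of 4 Y-linked genes (leave-one-out 0 to 9). The median differences ranged over -0.69 to -0.31, -1.18 to -0.78 and -0.71 to -0.34 in the 3 comparisons when 1 library was left out, and the control coefficient of variation over 16.7 to 31.1%.

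Calls in the 4 companion lists numbered 1 in RalA cKO against control and became 2 with library totals, 3 without a filter, 9 with DESeq2, 12 with quality weights, 0 with the replicate block, 2 with length offsets, 3 with the summed Y-linked covariate, 0 with that of 4 genes and 0 without the 2 libraries (leave-one-out 0 to 5). In RalAB cKO against control 28 became 43 with quality weights (leave-one-out 20 to 39). Between the mutants 17 became 11 with the summed Y-linked covariate and 10 without the 2 libraries (leave-one-out 10 to 18). The replicate block gave 0, 18 and 4 genes lower in the 3 comparisons. For same-numbered libraries of different groups, the deviations of log2 CPM from the group mean correlated at -0.198 to 0.175 over the tested genes.

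Signs turned for uncalled values. In RalA cKO against control these were Bcan at -0.025 (library totals) and -0.039 (4 Y-linked genes), Pcdh15 at 0.33 (length offsets) and 0.23 (4 Y-linked genes), Nxph1 at 0.021 (4 Y-linked genes) and Ednrb at 0.12 without the 2 libraries, and with 1 library left out Pcdh15 ranged over -0.57 to 0.096 and Ednrb over -0.19 to 0.098. In RalAB cKO against control Luzp2 was at -0.027 (library totals), -0.11 (quality weights) and -0.037 (length offsets) and Tnr at -0.081 (quality weights), and with 1 library left out Luzp2 ranged over -0.099 to 0.14, Tnr over -0.14 to 0.27 and Ednrb over -0.22 to 0.061. Between the mutants library totals gave Sox6 at 0.020 and Ednrb at 0.00068, quality weights Ednrb at 0.11, and the 2 libraries left out Serpine2 at -0.036. The summed Y-linked covariate gave Luzp2 at 0.022, Pcdh15 at 0.12, Ptprz1 at 0.31, Sox5 at 0.041, Sox6 at 0.38, Xylt1 at 0.26 and Ednrb at 0.19. With 1 library left out Sox6 ranged over -0.37 to 0.095, Ednrb over -0.19 to 0.077, Xylt1 over -0.30 to 0.096, Ptprz1 over -0.51 to 0.098, Gpr37l1 over -0.17 to 0.017 and Serpine2 over -0.036 to 0.14. The cause of these changes was not tested. Library totals moved the median of all genes to -0.14 and -0.10 against control and the calls over all genes to 176 higher and 250 lower (RalA cKO, against 230 and 144) and 1002 and 1419 (RalAB cKO, against 1264 and 1214). With 4 libraries a group, about 36% of simulated 1.5-fold changes were recovered in RalAB cKO against control, which limits what a missed call says. That rate was not estimated for the precursor genes alone. Their median coefficient of variation in RalAB cKO was 37.9%, against 15.5% over all tested genes, so their recovery may be lower.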
